A study of Drosophila melanogaster with 30 samples.

Results

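Circulating hemocytes of Drosophila larvae infested by the parasitoid wasp Leptopilina boulardi (strain G486) were compared with circulating hemocytes of uninfested larvae of the same age, 120 h after egg laying (AEL). The comparison uses every circulation library of that age, 3 infested and 3 normal, which are 6 of the 30 Drop-seq libraries of the series. Both groups are Oregon-R larvae without a transgene, raised at 25 °C. The infested larvae met the wasps at 72 h AEL, the wasps were taken away after 8 h, and the hemocytes were collected 48 h after infestation. The normal larvae are labelled as steady state. Each library is a pool of larvae whose number the sources used here do not give, and the labels call the libraries of a group biological replicates. The labels describe how lymph glands were collected and do not give a protocol for hemolymph. A barcode was kept as a cell if it held 400 to 5000 genes and at most 20% of its UMIs (unique molecular identifiers, the counted transcript molecules) on mitochondrial genes. This left 8781 of 9000 barcodes, 1758 normal and 7023 infested. Libraries from circulation at 96 h AEL, 24 h after infestation, were used only to see where the effect at 120 h differed.

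Larval hemolymph carries 3 classes of hemocyte. Plasmatocytes are macrophage-like cells that engulf particles and secrete extracellular matrix, and crystal cells carry the prophenoloxidases PPO1 and PPO2 that start melanization. Lamellocytes are large flat cells that are rare in healthy larvae. When a wasp egg lies in the body cavity, plasmatocytes attach to it, lamellocytes form and wrap it in layers, and the capsule is melanized. The lymph gland, the larval hematopoietic organ, breaks up in the same period and sheds its hemocytes into circulation, so a sample of infested hemolymph can hold cells of both sources.

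The kept cells of a normal library held 4109834 to 4848757 UMIs in 507 to 684 cells, and those of an infested library held 16006209 to 27414367 UMIs in 1867 to 3102 cells. Median UMIs per cell were 4951 to 7020 in normal and 6477 to 7102 in infested libraries (exact permutation test, two-sided, p = 0.3). With 3 libraries against 3, the smallest p this test can give is 0.1. Mitochondrial genes took 5.15 to 6.45% of UMIs in normal and 2.41 to 3.58% in infested libraries, without overlap (exact p = 0.1). Normal library 3 stood apart. Its log2 levels correlated with those of the other 2 normal libraries at r = 0.925 and 0.928, with the normal libraries of 96 h at 0.914 to 0.982, and normal libraries 1 and 2 correlated with each other at 0.979. The reverse held for normal library 3 of 96 h, which correlated at 0.960 and 0.926 with normal libraries 2 and 1 of 120 h and at 0.935 and 0.904 with the other normal libraries of 96 h. These 2 libraries thus stood closer to the other age than their labels say, and whether the labels are right was not tested. Normal library 1 also shared 38 cell barcodes with normal library 3 of 96 h, which were 5.56% and 8.64% of their kept cells. Cells of the same barcode correlated at a median r of 0.667 between the 2 libraries, against 0.546 for cells of different barcodes. Counts are therefore given with and without normal library 3. p-values measure the spread between these libraries.

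Infestation went with a change in the levels of a large share of the genes tested. Levels are given as CPM, the UMIs of a gene per 1000000 UMIs of the library after TMM scaling, and were tested on the summed UMIs with edgeR's quasi-likelihood test and Benjamini-Hochberg adjustment. Of 7872 genes tested, 2217 were higher in infested libraries at an adjusted p under 0.05 (28.2% of the genes tested) and 1956 were lower (24.8%). The counts given below for gene lists stand beside these shares. The median log2 fold change over all tested genes was 0.012, which the TMM scaling sets near 0, so a shift of the whole scale could not be seen. At least 4-fold differences were called for 442 higher and 476 lower genes. Infested values lay above all normal values for 34% of the genes and below them for 29.2%. Without normal library 3, 2270 of 8795 genes were higher (25.8%) and 2076 were lower (23.6%), and 2031 of the higher and 1728 of the lower genes kept their call. Each library sums over all its cells, and fewer cells of a type and less RNA per cell cannot be told apart in such sums.

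Lamellocyte genes rose together. All 13 tested markers of lamellocytes were higher in infested libraries, with a median log2 fold change of 5.21, and 12 of 13 were called without normal library 3 (median 4.73). Their summed level was 617 to 1929 CPM in the normal and 27107 to 31488 CPM in the infested libraries. atilla, which encodes a GPI-anchored surface protein that defines lamellocytes, stood at 184, 195 and 23.1 CPM in the normal libraries and 5730, 7481 and 6556 CPM in the infested libraries. Every infested library was above every normal library (log2 fold change 5.62, SE 0.82, adjusted p = 0.00196). PPO3, the prophenoloxidase of lamellocytes, stood at 24.7, 32.5 and 1.58 CPM in the normal libraries and 1261, 1494 and 1375 CPM in the infested libraries (log2 fold change 6.13, SE 0.89, adjusted p = 0.00197). In both genes normal library 3 was the lowest of the 6 and the infested libraries lay close together. CG14610, a lamellocyte marker without a described function here, was at 221, 314 and 6.56 CPM in the normal libraries and 7360, 9200 and 8328 CPM in the infested libraries (log2 fold change 5.52, SE 1.22, adjusted p = 0.00988). ItgalphaPS4, an alpha integrin, was at 55.2, 33.5 and 0.452 CPM in the normal libraries and 596, 700.3 and 931 CPM in the infested libraries (log2 fold change 4.63, SE 1.09, adjusted p = 0.0123). Its call was lost without normal library 2, where the log2 fold change was 4.72. The same library decided the call of CG1208, at 166, 132 and 0.905 CPM in the normal libraries and 3900, 4913 and 5228 CPM in the infested libraries, with 5.55 on the log2 scale and 5.80 without normal library 2. Dbi, an acyl-CoA binding protein, rose by 4.38 on the log2 scale (adjusted p = 0.0021), from 65, 117 and 19.7 CPM to 1123, 1277 and 1806 CPM. CG1648 rose by 5.34 (adjusted p = 0.000188), the noncoding RNA CR44316 by 5.10 (adjusted p = 0.000438) and CG33462 by 2.23 (adjusted p = 0.00201). msn, a kinase upstream of JNK, had the smallest fold of the list, 0.68 (adjusted p = 0.0325). It was not called when any of normal libraries 1 or 3 or infested libraries 1, 2 or 3 was left out, with log2 fold changes of 0.49 to 0.75. The list was drawn from markers the study used for lamellocytes of the lymph gland.

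**Figure D1:**
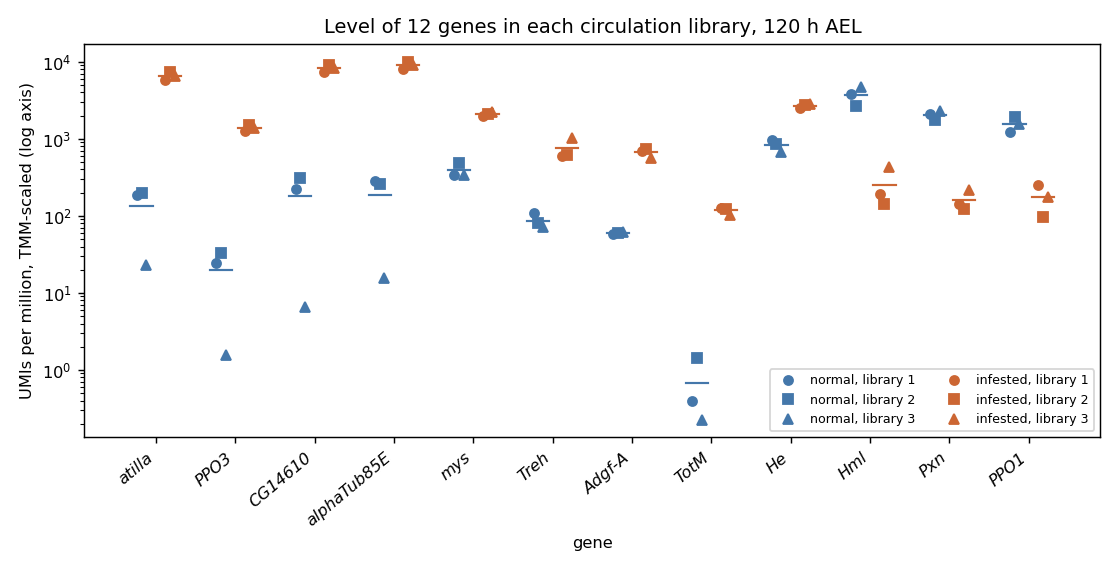
Levels of 12 genes in the 6 libraries, with 1 point per library, normal and infested side by side, on a log axis in CPM, and a line at each group mean. The infested libraries lie above all normal libraries for atilla, PPO3, CG14610, alphaTub85E, mys, Treh, Adgf-A, TotM and He, and below them for Hml, Pxn and PPO1.

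Most infested cells carried UMIs of lamellocyte genes. Each cell was thinned to 1500 UMIs, so that depth could not set the count, which left out 46 normal and 115 infested cells that had fewer. atilla had a UMI in 1.49, 2.58 and 1.49% of cells in the normal libraries and in 66.5, 75.4 and 78% in the infested libraries (exact permutation test, p = 0.1, the smallest 3 against 3 can give). Without thinning the difference of the group means was 78.0 instead of 71.4 percentage points. Of 5 genes (atilla, PPO3, ItgalphaPS4, CG1208 and CG14610), at least 3 had a UMI in 741 of 1753 cells of infested library 1 (42.3%, exact Clopper-Pearson 95% interval 39.9 to 44.6%), in 1113 of 2054 cells of library 2 (54.2%, 52.0 to 56.4%) and in 1902 of 3101 cells of library 3 (61.3%, 59.6 to 63.1%). In the normal libraries this held for 8 of 672 cells (1.19%, 0.515 to 2.33%), 8 of 504 cells (1.59%, 0.688 to 3.10%) and 0 of 536 cells (0 to 0.686%), where a floor of 3 counts allows a share of up to 0.560%. The intervals cover counting error only, and the infested libraries differed from each other by more than these intervals. The range of at least 3 genes is not a cell type, and many cells lay near its edge: 33.0, 29.0 and 27.3% of infested cells had 1 or 2 of the 5 genes, against 0.744, 2.38 and 2.24% of normal cells. None of the 5 genes was seen in 24.8, 16.8 and 11.4% of infested cells and in 98.1, 96.0 and 97.8% of normal cells. As a reference for free RNA, cells with at least 10 UMIs of PPO1 and PPO2 together, the crystal cell genes, held a UMI of atilla in 0, 11.1 and 35.7% of 13, 9 and 14 infested cells, with median depths of 10798, 4491 and 8037 UMIs before thinning, against 6954, 6906 and 7108 UMIs for all thinned infested cells. In the same cells CG14610 had a UMI in 23.1, 22.2 and 42.9% and PPO3 in 0, 11.1 and 21.4%. ItgalphaPS4 had one in 0, 0 and 14.3% and CG1208 in 0, 11.1 and 7.14%. The shares over all infested cells were higher for all 5 genes in every library. These crystal cell gene carriers are few and no doublets were removed. The part of free RNA was not tested.

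**Figure D2:**
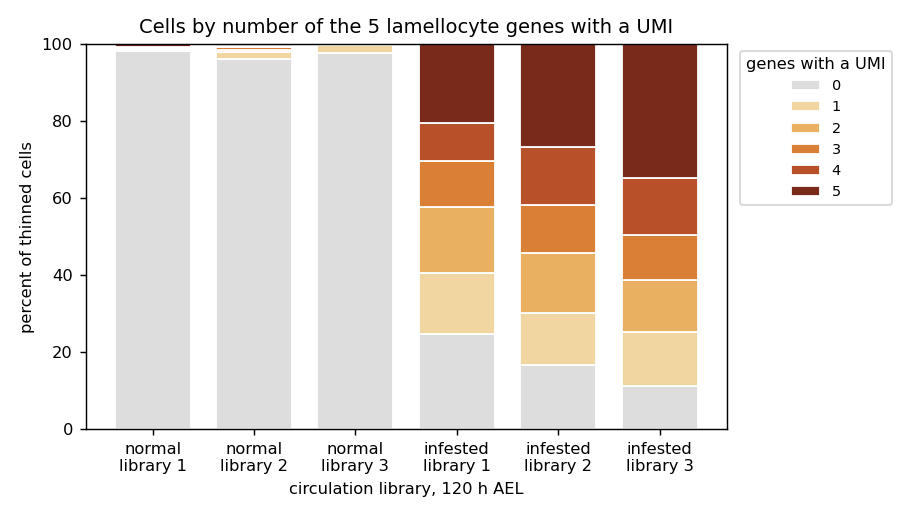
Share of cells in each library, in percent, by the number of 5 lamellocyte genes (atilla, PPO3, ItgalphaPS4, CG1208, CG14610) with a UMI after thinning to 1500 UMIs. Cells with 3 or more make up 42.3 to 61.3% of the infested libraries and at most 1.59% of the normal libraries.

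Beyond the marker list, the 15 largest rises held genes that were close to absent in normal hemolymph. They were chosen as the largest fold changes with a call, at least 20 CPM in infested libraries, no overlap between groups and the same call without normal library 3, and CG42792, PPO3 and atilla of the marker list were among them. CG42792 was at 0, 0.605 and 0 CPM in the normal libraries and 51.8, 55.7 and 26.7 CPM in the infested libraries (log2 fold change 7.75, SE 0.70, adjusted p = 0.00035). TotM, a Turandot peptide that is induced by stress and by JAK/STAT signalling, was at 0.391, 1.41 and 0.226 CPM in the normal libraries and 128, 124 and 102 CPM in the infested libraries (log2 fold change 7.42, SE 0.36, adjusted p = 7.67e-05). In both genes the normal libraries held few UMIs, and a level of at least 20 CPM in infested libraries was part of the rule. CG12133 was at 1.17, 2.42 and 0 CPM in the normal libraries and 207, 283 and 206 CPM in the infested libraries (log2 fold change 7.56, SE 0.56, adjusted p = 0.000185). CG18557 was at 2.54, 7.26 and 5.2 CPM in the normal libraries and 483, 431 and 304 CPM in the infested libraries (log2 fold change 6.35, SE 0.39, adjusted p = 0.000137). CG31219 was at 5.09, 8.68 and 7.92 CPM in the normal libraries and 491, 489.9 and 352 CPM in the infested libraries (log2 fold change 5.95, SE 0.26, adjusted p = 6.57e-05). For these 3 genes, which RefSeq lists with serine protease names, infested library 3 was the lowest or level with the lowest of the infested group. The lack of overlap between the groups was set by the rule that chose them. CG9733 (7.26), CG10232 (6.44) and CG31220 (6.15), also with serine protease names in RefSeq, rose with adjusted p of 7.67e-05, 7.67e-05 and 0.00126. rho-6, a rhomboid family gene, rose by 5.89 (adjusted p = 0.000181) to 42.1, 49 and 55 CPM. CG14109 rose by 6.28, CG15210 by 5.83 and CG7497 by 5.82, with adjusted p of 0.00109, 0.000161 and 0.000506. In RefSeq (Release 6 assembly) CG31220 lies at positions 19648487 to 19650586 and CG31219 at 19651018 to 19652430 of chromosome 3R, 431 bases apart.

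Tubulins of restricted expression and the actin machinery rose. Of 24 tested genes of the actin and tubulin list, 15 were higher and 1 was lower (median log2 fold change 1.42), with the same counts without normal library 3 and 2 lower without normal library 1. alphaTub85E, an alpha tubulin, was at 279.6, 258 and 15.6 CPM in the normal libraries and 7959, 9988 and 9201 CPM in the infested libraries (log2 fold change 5.62, SE 1.03, adjusted p = 0.00475). betaTub60D, a beta tubulin, was at 305, 409 and 10.9 CPM in the normal libraries and 7696, 10007 and 9315 CPM in the infested libraries (log2 fold change 5.22, SE 1.17, adjusted p = 0.0104). Normal library 3 was far below the other normal libraries in both, and the infested libraries were above all normal ones. The widely expressed genes of the list rose less. Act5C, a cytoplasmic actin, was at 4386, 5959 and 4619 CPM in the normal libraries and 17683, 20115 and 19680 CPM in the infested libraries (log2 fold change 1.94, SE 0.14, adjusted p = 0.000148). Act42A, the other cytoplasmic actin, rose by 2.24 (adjusted p = 7.67e-05) and alphaTub84B, the main alpha tubulin, by 1.78 (adjusted p = 0.000145). Reads of Act5C and Act42A, and of alphaTub84B and alphaTub84D, come from near-identical copies and could have been split between them. tsr, the actin-severing protein cofilin, rose from 2682, 2662 and 2412 CPM to 8593, 9329 and 8958 CPM (log2 fold change 1.79, SE 0.099, adjusted p = 7.67e-05). zip, the heavy chain of nonmuscle myosin II, was the gene of the list that fell (log2 fold change -1.19, SE 0.19, adjusted p = 0.00209), from 1192, 1344 and 848 to 505, 444 and 535 CPM. Moe, the cortex linker moesin, had a log2 fold change of 0.083 (adjusted p = 0.472), with the infested libraries at 3521, 3797 and 3620 CPM and the normal ones at 3342, 3562 and 3420 CPM.

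Genes of integrin adhesion rose as a group. Integrins are pairs of an alpha and a beta subunit that bind matrix outside the cell and, through talin, kindlin, paxillin and the ILK complex, actin inside it. Of 18 tested genes 14 were higher and 1 lower (median 2.30), and the counts were the same without normal library 3. The gene that was lower, Actn, alpha-actinin (-0.49, adjusted p = 0.0375), lost its call without normal library 1 (-0.48), normal library 2 (-0.45), infested library 2 (-0.51) or infested library 3 (-0.40). mys, the main beta subunit, was at 341, 489.8 and 339 CPM in the normal libraries and 1970, 2092 and 2256 CPM in the infested libraries (log2 fold change 2.43, SE 0.18, adjusted p = 0.000148). Itgbetanu, the other beta subunit of flies, was at 15.3, 15.1 and 8.14 CPM in the normal libraries and 269, 303 and 377 CPM in the infested libraries (log2 fold change 4.61, SE 0.28, adjusted p = 9.75e-05). Infested libraries were several-fold above all normal libraries in both. ItgalphaPS5, an alpha subunit, rose by 2.55 (adjusted p = 0.0056) from 31.5, 19 and 73.1 to 259.9, 274 and 187 CPM. Of the proteins inside the cell, Fit1, a kindlin, was at 77.9, 78.5 and 54.1 CPM in the normal libraries and 710.0, 933 and 872 CPM in the infested libraries (log2 fold change 3.58, SE 0.20, adjusted p = 7.70e-05). rhea, which encodes talin, rose by 2.52 (adjusted p = 0.000287), parvin by 2.97 (adjusted p = 0.000153) and Ilk by 2.34 (adjusted p = 7.67e-05). These 3 link integrins to actin. Pax, paxillin, rose by 2.16 (adjusted p = 0.000244), and Vinc, vinculin, by 1.95 (adjusted p = 0.000389), with no overlap between groups in either.

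Genes of sugar supply rose with them. Trehalose is the blood sugar of flies, Tret1-1 carries it into cells and trehalase, encoded by Treh, splits it into glucose. Of 14 tested genes of the sugar and glycolysis list 9 were higher and 2 lower (median 0.87), as without normal library 3. Treh was at 108, 80.5 and 71.7 CPM in the normal libraries and 601, 621 and 1028 CPM in the infested libraries (log2 fold change 3.11, SE 0.28, adjusted p = 0.000278), with infested library 3 the highest of all. Tret1-1 was at 22.3, 28.2 and 9.5 CPM in the normal libraries and 287, 267 and 415 CPM in the infested libraries (log2 fold change 4.01, SE 0.41, adjusted p = 0.000551). Of the enzymes of glycolysis, Gapdh2 was at 231, 253 and 169 CPM in the normal libraries and 1630, 1991 and 1307 CPM in the infested libraries (log2 fold change 2.91, SE 0.22, adjusted p = 0.000158), and here infested library 3 was the lowest of the infested group but above all normal libraries. Tpi rose by 2.94 (adjusted p = 0.00142). ImpL3, lactate dehydrogenase, rose from 4.7, 6.86 and 13.1 to 63.8, 75.7 and 21 CPM (log2 fold change 2.71, SE 0.59, adjusted p = 0.00952). The 2 genes that fell were Hex-A, a hexokinase, with a log2 fold change of -1.36 (adjusted p = 0.000211) and Ald, aldolase, with -0.84 (adjusted p = 0.00764).

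Extracellular adenosine signals between immune cells and other tissues. Its receptor, AdoR, was at 4.3, 6.46 and 0 CPM in the normal libraries and 56.6, 71.6 and 64.6 CPM in the infested libraries (log2 fold change 4.13, SE 0.65, adjusted p = 0.00264). Adgf-A, a secreted adenosine deaminase that removes adenosine, was at 57.5, 59.3 and 60.9 CPM in the normal libraries and 688, 748 and 569 CPM in the infested libraries (log2 fold change 3.50, SE 0.15, adjusted p = 6.57e-05). Both genes were higher in every infested library than in any normal library. AdenoK, adenosine kinase, fell from 45, 47.8 and 57.7 to 37.5, 26.8 and 23.5 CPM (log2 fold change -0.78, adjusted p = 0.0152). Of 5 tested genes of the list 2 were higher and 1 lower (median 0.21), beside 28.2% higher and 24.8% lower over all genes.

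Most plasmatocyte markers fell. Of 13 tested 9 were lower, 1 was higher and 3 (crq, Ama and vir-1) were not called (median -2.44), and 11 were lower and 1 higher without normal library 3. The summed level was 15018 to 24479 CPM in the normal and 4842 to 6328 CPM in the infested libraries. Hml, hemolectin, a clotting protein and the most used marker of plasmatocytes, was at 3811, 2693 and 4758 CPM in the normal libraries and 194, 141 and 429 CPM in the infested libraries (log2 fold change -3.88, SE 0.49, adjusted p = 0.00113). After thinning, Hml had a UMI in 96.7, 86.5 and 94% of cells in the normal and 22.5, 17.1 and 32.5% in the infested libraries (exact p = 0.1, the smallest possible). Pxn, peroxidasin, was at 2113, 1776 and 2292 CPM in the normal libraries and 145, 121 and 215 CPM in the infested libraries (log2 fold change -3.69, SE 0.25, adjusted p = 0.000145). In both the lowest normal library was several-fold above the highest infested one. He, hemese, a surface protein of all hemocyte classes, was the marker that rose, from 977, 868 and 667 to 2501, 2766 and 2820 CPM (log2 fold change 1.69, SE 0.16, adjusted p = 0.000321), and its share of cells with a UMI went from 76.8, 68.3 and 60.8% to 91.7, 92 and 94.7%. Pvr, a receptor tyrosine kinase that hemocytes need to survive, fell by 2.09 on the log2 scale (adjusted p = 0.000161).

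The matrix genes of plasmatocytes fell without exception. Hemocytes secrete much of the basement membrane of the larva, a sheet of collagen IV, laminin and perlecan. All 10 tested genes of the basement membrane list were lower (median -3.21), with normal library 3 or without it (median -2.65), and 10 of 10 had every infested library below every normal one. Cg25C, a collagen IV chain, was at 3008, 2468 and 4913 CPM in the normal libraries and 379, 271 and 462 CPM in the infested libraries (log2 fold change -3.22, SE 0.33, adjusted p = 0.000528). Its partner vkg fell by 3.27 on the log2 scale (adjusted p = 0.000661). LanA, a laminin chain, was at 641, 576 and 996 CPM in the normal libraries and 43.2, 32 and 78 CPM in the infested libraries (log2 fold change -3.85, SE 0.41, adjusted p = 0.00062), and LanB1 fell by 2.39 (adjusted p = 0.00104). Tig, the matrix protein tiggrin, was at 338, 308 and 427 CPM in the normal libraries and 26.1, 20.5 and 37.3 CPM in the infested libraries (log2 fold change -3.67, SE 0.26, adjusted p = 0.000148). Ppn, papilin, was at 1427, 1043 and 4101 CPM in the normal libraries and 217, 194 and 305 CPM in the infested libraries (log2 fold change -3.20, SE 0.56, adjusted p = 0.00403). Normal library 3 was the highest of the 6 for Cg25C, LanA, Tig and Ppn, and the fall of Ppn was 2.37 on the log2 scale without it. BM-40-SPARC, a collagen-binding protein, fell by 2.10 (adjusted p = 0.000213).

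Crystal cell genes fell as well. Of 10 tested markers 9 were lower and 0 were higher (median -3.19), with the same counts without normal library 3, and their summed level was 3377 to 5743 CPM in the normal and 284 to 705 CPM in the infested libraries. PPO1 was at 1233, 1932 and 1562 CPM in the normal libraries and 248, 97.8 and 173 CPM in the infested libraries (log2 fold change -3.19, SE 0.37, adjusted p = 0.000856), and PPO2 at 1371, 2457 and 2269 CPM in the normal libraries and 356, 113 and 206 CPM in the infested libraries (log2 fold change -3.18, SE 0.47, adjusted p = 0.00202). Both encode the prophenoloxidases stored in crystal cells, and infested library 2 was the lowest for both. lz, the Runx transcription factor that specifies crystal cells, was at 9.39, 10.9 and 9.73 CPM in the normal libraries and 2.13, 1.95 and 1.54 CPM in the infested libraries (log2 fold change -2.42, SE 0.24, adjusted p = 0.000358). peb, a zinc finger factor, was at 47.7, 44.6 and 59 CPM in the normal libraries and 3.27, 1.51 and 2.97 CPM in the infested libraries (log2 fold change -4.28, SE 0.28, adjusted p = 0.000138). After thinning, PPO1 had a UMI in 6.25, 9.72 and 15.9% of normal and 2.62, 2 and 1.16% of infested cells (exact p = 0.1, the smallest possible). The 3 infested libraries were below the 3 normal ones, and normal library 3 was the highest. CG10424 was the marker without a call (-0.13, adjusted p = 0.539).

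In the phagocytosis list, which holds receptors and secreted Nimrod B proteins, more genes fell than rose. Of 13 tested genes 7 were lower and 3 higher (median -1.17), beside 24.8% lower and 28.2% higher over all genes. Without normal library 3, 9 were lower and 3 higher of 14. eater, a receptor for bacteria on plasmatocytes, was at 713, 805 and 611 CPM in the normal libraries and 103, 87.8 and 148 CPM in the infested libraries (log2 fold change -2.65, SE 0.23, adjusted p = 0.00022). NimB4, a secreted Nimrod protein, was at 837, 771 and 673 CPM in the normal libraries and 129.6, 122 and 173 CPM in the infested libraries (log2 fold change -2.43, SE 0.18, adjusted p = 0.000148). NimC1, the P1 antigen of plasmatocytes, fell by 1.12 on the log2 scale (adjusted p = 0.00301) and drpr, the receptor for apoptotic cells, by 1.33 (adjusted p = 0.00126). Among the scavenger receptors Sr-CIII rose from 12.5, 10.7 and 13.1 to 103, 103 and 89.4 CPM (log2 fold change 3.02, SE 0.13, adjusted p = 6.57e-05). Sr-CIV rose by 2.39 (adjusted p = 0.000105), with no overlap between groups in either gene.

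Of 12 tested genes of clotting and melanization, 9 were lower and 3 higher (median -2.42), and without normal library 3, 9 were lower and 2 higher of 14. PPO3 led the rises and Hml, PPO1 and PPO2 were among the falls. yellow-f, which converts dopachrome on the way to melanin, was at 187, 226 and 117 CPM in the normal libraries and 479, 518 and 713 CPM in the infested libraries (log2 fold change 1.69, SE 0.27, adjusted p = 0.00257). Spn27A, a serpin that holds melanization in check, was at 301, 271 and 276 CPM in the normal libraries and 92.5, 79.9 and 105 CPM in the infested libraries (log2 fold change -1.61, SE 0.14, adjusted p = 0.00021). The groups did not overlap in either gene. Of 9 tested serpins 3 were higher and 4 lower (median 0.21), beside 28.2% higher and 24.8% lower over all genes. Spn88Eb rose by 3.44 (adjusted p = 7.67e-05) and Spn88Ea by 3.11 (adjusted p = 7.67e-05), while Spn28Dc fell by 2.27 on the log2 scale (adjusted p = 0.000148).

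The 15 largest falls, chosen by the same rule as the rises, held several genes with roles in metabolism and signalling beside Hml, LanA, peb and Pde1c of the lists. CG6034 was at 31.7, 41.6 and 2.49 CPM in the normal libraries and 0.2, 0.504 and 0.0385 CPM in the infested libraries (log2 fold change -6.85, SE 1.23, adjusted p = 0.00433), with normal library 3 far below the other normal libraries. After thinning CG6034 had a UMI in 0.149, 1.19 and 0.187% of cells of the normal libraries, so its normal level came from few cells. CG1673, a branched-chain amino acid transaminase, was at 65.7, 52.5 and 60.9 CPM in the normal libraries and 3.27, 2.58 and 4.32 CPM in the infested libraries (log2 fold change -4.12, SE 0.21, adjusted p = 7.67e-05). CG7470, which makes the first step from glutamate to proline, was at 76.7, 73.8 and 45.2 CPM in the normal libraries and 5.47, 3.27 and 4.01 CPM in the infested libraries (log2 fold change -3.95, SE 0.28, adjusted p = 0.000148). The normal values of these 2 enzymes lay above 40 CPM and the infested ones under 6 CPM. Gal, a beta-galactosidase, was at 123, 236 and 60.6 CPM in the normal libraries and 9.61, 6.48 and 12.5 CPM in the infested libraries (log2 fold change -3.87, SE 0.55, adjusted p = 0.00178). Pde1c, a cyclic nucleotide phosphodiesterase and a crystal cell marker, was at 46.2, 84.1 and 85.3 CPM in the normal libraries and 3.27, 2.52 and 3.51 CPM in the infested libraries (log2 fold change -4.52, SE 0.30, adjusted p = 0.000145). rad, a GTPase-activating protein for Rap, fell by 4.11 on the log2 scale (adjusted p = 0.000452) and Dhit, a regulator of G protein signalling, by 3.80 (adjusted p = 6.57e-05). Both act on small or heterotrimeric G proteins. cpo, an RNA-binding protein, was at 14.7, 34.3 and 183 CPM in the normal libraries and 3.14, 2.9 and 3.24 CPM in the infested libraries (log2 fold change -4.63, SE 0.98, adjusted p = 0.00842), and its log2 fold change was -2.99 without normal library 3, the highest of the 6. Inx3, a gap junction innexin, had a log2 fold change of -3.72 (adjusted p = 0.015). Its call was lost without infested library 2 (-3.62) or infested library 3 (-3.70), and the value without normal library 3 was -2.05. CG32335, CG12071 and the noncoding RNA CR45660 fell by 4.96, 4.58 and 4.22 on the log2 scale, with adjusted p of 0.00256, 0.00226 and 0.000202.

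Cecropins were the antimicrobial peptides that rose. These short peptides of the fat body and hemocytes kill bacteria. Of 12 tested peptide genes 4 were higher and 1 lower (median 0.46), and without normal library 3, 5 were higher and 1 lower of 14. Over all genes 28.2% were higher and 24.8% lower. CecA1 was at 0, 7.26 and 0.452 CPM in the normal libraries and 56.4, 69.4 and 42.6 CPM in the infested libraries (log2 fold change 4.43, SE 0.87, adjusted p = 0.00616). CecA2, CecB and CecC had log2 fold changes of 2.90, 3.13 and 3.27 with adjusted p of 0.0148, 0.0213 and 0.0165. The Cecropin genes are near-identical copies, so their reads could have been split between them. The calls of CecA2 and CecB were lost without infested library 1 (2.77 and 2.98) or infested library 2 (2.86 and 2.97). That of CecC was lost without either infested library (3.11 and 3.10) or normal library 2 (3.45). Drs, drosomycin, the classical target of the Toll pathway, spread over 39.5, 164 and 27.4 CPM in the normal libraries and 72.3, 116 and 95.9 CPM in the infested libraries, so that the groups overlapped (log2 fold change 0.30, adjusted p = 0.716, and -0.11 without normal library 3). Def was at 0 in all 6 libraries. Without infested library 1 or infested library 2, 1 peptide gene was higher and 0 were lower, and without infested library 3, 0 were lower.

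Genes of the Toll and Imd pathways moved in both directions. Of 14 tested Toll genes 4 were higher and 3 lower (median -0.092), and of 15 Imd genes 8 were higher and 2 lower (median 0.77), beside 28.2% higher and 24.8% lower over all genes. The Toll shares were near those of all genes. pll, the kinase Pelle of the Toll pathway, was at 25.6, 27.6 and 25.6 CPM in the normal libraries and 66.1, 77.8 and 71.9 CPM in the infested libraries (log2 fold change 1.45, SE 0.11, adjusted p = 0.000167). cact, the inhibitor that keeps Dorsal and Dif in the cytoplasm, was at 123, 176 and 262 CPM in the normal libraries and 70.2, 75.2 and 63.3 CPM in the infested libraries (log2 fold change -1.43, SE 0.27, adjusted p = 0.00461). Neither gene had overlapping groups. In the Imd pathway key, a subunit of the IKK complex, was at 30.3, 32.5 and 27.4 CPM in the normal libraries and 90.3, 92 and 79.7 CPM in the infested libraries (log2 fold change 1.54, SE 0.12, adjusted p = 0.000165), and Tak1, the kinase above it, rose by 1.11 (adjusted p = 0.00196). The counts rested on single libraries. Without normal library 1, infested library 1 or infested library 2, 5 Imd genes were higher, and 1 was lower without normal library 2 or any of the infested libraries. In the Toll pathway 1 gene was higher without infested library 2 and 5 were lower without normal library 3.

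Targets and ligands of JAK/STAT signalling rose while its kinase and transcription factor fell. In this pathway the Unpaired cytokines bind the receptor Domeless, and the kinase Hopscotch activates Stat92E. Of 10 tested genes 7 were higher and 2 lower (median 1.42), and 6 were higher without normal library 3 and 4 without infested library 1 or infested library 2. Of the ligands upd3 was at 2.93, 7.46 and 7.47 CPM in the normal libraries and 15.5, 19.8 and 24.3 CPM in the infested libraries (log2 fold change 1.75, SE 0.35, adjusted p = 0.00586). Of the targets, TotM was among the largest rises, and TotA had no UMI in any normal library and 3.74, 4.09 and 2.12 CPM in the infested libraries, at least 16.0-fold higher when the normal group is set at the floor of 3 counts over the group. Tep1, a thioester protein, rose from 474, 439 and 322 to 892, 792 and 939.8 CPM (log2 fold change 1.09, SE 0.17, adjusted p = 0.00198). The groups did not overlap in any of these genes. hop fell by 0.95 on the log2 scale (adjusted p = 0.000786). Stat92E was at 170.4, 138 and 114 CPM in the normal libraries and 80.3, 59.3 and 64.8 CPM in the infested libraries (log2 fold change -1.05, SE 0.19, adjusted p = 0.00332). dome, the receptor, had a log2 fold change of -0.35 (adjusted p = 0.217).

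Of 13 tested genes of the JNK pathway 5 were higher and 4 lower (median 0.33), beside 28.2% higher and 24.8% lower over all genes. Without infested library 1, 2 or 3 the higher genes were 3, 2 and 2, and 2 were lower without infested library 1 or 2. egr, the TNF ligand Eiger, was at 2.93, 7.06 and 4.07 CPM in the normal libraries and 27.8, 33 and 32 CPM in the infested libraries (log2 fold change 2.72, SE 0.28, adjusted p = 0.000414). bsk, the kinase JNK itself, rose by 0.60 (adjusted p = 0.00416). Gadd45, which responds to stress, was at 150.1, 149 and 162 CPM in the normal libraries and 61.8, 60.3 and 59.4 CPM in the infested libraries (log2 fold change -1.35, SE 0.098, adjusted p = 0.000148). puc, a phosphatase that JNK induces, had a log2 fold change of 0.32 (adjusted p = 0.228), was called without normal library 2 (0.54), and its groups overlapped, at 157, 253 and 174 and 210.5, 238 and 279.9 CPM.

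Genes of the ecdysone response were lower or without a call. Ecdysone is the steroid that times the end of larval life. Of 14 tested genes 8 were lower and 0 higher (median -1.35), and 11 were lower without normal library 3, the library that resembled 96 h. Without normal library 2 or infested library 1 the count was 5, without infested library 2 it was 4, and without normal library 1, 1 gene was higher. Eip75B, an early ecdysone target, was at 274, 416 and 184 CPM in the normal libraries and 105, 92.2 and 117 CPM in the infested libraries (log2 fold change -1.48, SE 0.29, adjusted p = 0.00579). EcR, the receptor, was at 237, 256 and 57.7 CPM in the normal libraries and 69.9, 53.8 and 76.7 CPM in the infested libraries (log2 fold change -1.46, adjusted p = 0.0538), and it was called without normal library 3 (-1.89). Normal library 3 was level with the infested libraries for EcR, while the other normal libraries were above them. ftz-f1, a later nuclear receptor of the cascade, fell by 1.24 on the log2 scale (adjusted p = 0.000935) with no overlap. Notch pathway genes fell or had no call, with 5 of 8 lower and 0 higher (median -1.06). The receptor N was at 185, 175 and 248 CPM in the normal libraries and 46.1, 28.2 and 43.2 CPM in the infested libraries (log2 fold change -2.37, SE 0.23, adjusted p = 0.000353). Its ligand Ser, Serrate, which induces crystal cells, was at 17, 12.5 and 16.3 CPM in the normal libraries and 2.8, 2.46 and 4.63 CPM in the infested libraries (log2 fold change -2.20, SE 0.29, adjusted p = 0.000987), and the nuclear partner Su(H) had 0.22 (adjusted p = 0.294).

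Genes of cell division fell. Of 19 tested genes of mitosis 17 were lower and 0 higher (median -1.34), and of 20 genes of DNA replication 12 were lower and 1 higher (median -0.66), with the same counts without normal library 3. CycB, cyclin B, was at 45.4, 41.4 and 46.2 CPM in the normal libraries and 13.8, 11.1 and 13.8 CPM in the infested libraries (log2 fold change -1.78, SE 0.13, adjusted p = 0.000153). stg, the Cdc25 phosphatase that starts mitosis, was at 282, 194 and 281 CPM in the normal libraries and 65.6, 48.5 and 79.1 CPM in the infested libraries (log2 fold change -1.97, SE 0.23, adjusted p = 0.000692). polo, a mitotic kinase, was at 49.7, 42.8 and 61.8 CPM in the normal libraries and 16.5, 11.9 and 17.8 CPM in the infested libraries (log2 fold change -1.73, SE 0.20, adjusted p = 0.000712). Each normal library was above each infested library for these 3 genes. In DNA replication Mcm2, a subunit of the replicative helicase, fell by 1.14 on the log2 scale (adjusted p = 0.00141). Cdc6, which loads the helicase, was the gene that rose (1.08, adjusted p = 0.00243), and PCNA, the sliding clamp, had -0.16 (adjusted p = 0.394).

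Stress and metabolic lists were mixed, beside 28.2% higher and 24.8% lower over all genes. Of 10 heat shock genes 5 were lower and 2 higher (median -1.03). Hsp27, a small heat shock protein, was at 911, 1604 and 509 CPM in the normal libraries and 106, 106 and 85.9 CPM in the infested libraries (log2 fold change -3.34, SE 0.43, adjusted p = 0.00118), with all infested libraries below all normal ones. stv, the cochaperone Starvin, rose by 2.69 (adjusted p = 0.000145). Without infested library 3, 8 heat shock genes were lower. Of 18 antioxidant and glutathione S-transferase (GST) genes 7 were higher and 1 lower (median 0.50). GstE6 was at 42.7, 46.2 and 81.9 CPM in the normal libraries and 420.0, 464 and 431 CPM in the infested libraries (log2 fold change 2.95, SE 0.27, adjusted p = 0.000278), and GstD3 rose by 2.95 (adjusted p = 0.00182). The antioxidant gene that was lower was Cat, catalase (-1.04, adjusted p = 0.032), which lost its call without normal library 1 (-0.87), normal library 2 (-0.86), infested library 1 (-0.95) or infested library 2 (-1.0). These GST genes lie in clusters of similar copies, so reads could have been split between them. Of 11 genes of lipid storage and uptake 6 were lower and 2 higher (median -1.58). Lsd-2, a lipid droplet protein, fell from 436, 513 and 353 to 89.7, 79.3 and 109 CPM (log2 fold change -2.23, SE 0.19, adjusted p = 0.000216), and bmm, the Brummer lipase that acts on droplets, rose by 1.22 (adjusted p = 0.00119). With any library left out, 1 gene of the list was higher. Of 31 mitochondrial genes 18 were lower and 1 higher (median -1.22), beside a share of mitochondrial UMIs that was lower in every infested library, and whether cell quality or content set this was not tested. Of 84 ribosomal protein genes 11 were lower and 4 higher (median -0.022), and 13 were lower and 2 higher without normal library 3. The higher ribosomal genes were 0 without normal library 2, infested library 1 or infested library 2, and 7 were lower without normal library 1.

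Markers of other cells that hemolymph or a torn larva could add were also summed. Those of fat body and ring gland were lower in every infested library, and those of muscle, neurons and salivary gland overlapped between the groups. Fat body genes summed to 169.8 to 212 CPM in the normal and 17.8 to 52.1 CPM in the infested libraries, with 3 of 5 tested lower (6 of 6 without normal library 3). Salivary gland genes summed to 0.412 to 0.873 CPM in the normal and 0.182 to 0.687 CPM in the infested libraries and none could be tested. The muscle genes summed to 125 to 282 CPM in the normal and 130.2 to 293 CPM in the infested libraries, with 4 of 7 tested lower and 1 higher. The exception was TpnC73F, a troponin C, at 13.1, 15.5 and 7.01 CPM in the normal libraries and 223, 269 and 112 CPM in the infested libraries (log2 fold change 4.07, SE 0.44, adjusted p = 0.000658). Neuron genes summed to 30.5 to 84.9 CPM in the normal and 48.5 to 108 CPM in the infested libraries, with 1 of 3 tested higher and 1 lower. Here Syt1, synaptotagmin, rose from 4.5, 6.46 and 7.01 to 83.3, 103 and 36.1 CPM (log2 fold change 3.63, SE 0.46, adjusted p = 0.00112), while elav, the defining neuronal gene, was among those lower. The ring gland gene sro was lower (-2.93, adjusted p = 0.0056). Of the other hemocyte lists, 3 of 10 prohemocyte genes were higher and 3 lower (median -0.26), 0 of 4 genes of the posterior signalling center were higher and 1 lower, 3 of 6 GST-rich genes were higher and 0 lower, and 0 of 7 adipohemocyte genes were higher and 2 lower. These small counts stand beside 28.2% higher and 24.8% lower over all genes, and they moved with single libraries. Without infested library 1 or 2, 1 prohemocyte gene was lower. The posterior signalling center gene lost its call without infested library 1 or 2, and 2 were lower without infested library 3. Of the GST-rich genes 1 was lower without infested library 1. For muscle, 2 genes were higher without infested library 3 and 2 were lower without infested library 2, and for neurons 2 were lower without normal library 1 or 2. In the prohemocyte list CG10433 rose from 11, 9.68 and 4.3 to 216, 331 and 117 CPM (log2 fold change 4.72, SE 0.52, adjusted p = 0.000729). Of the marker lists, the lamellocyte list was the one in which every tested gene was higher. All 34 lists together held 436 tested genes, of which 110 were higher and 147 lower.

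**Figure D3:**
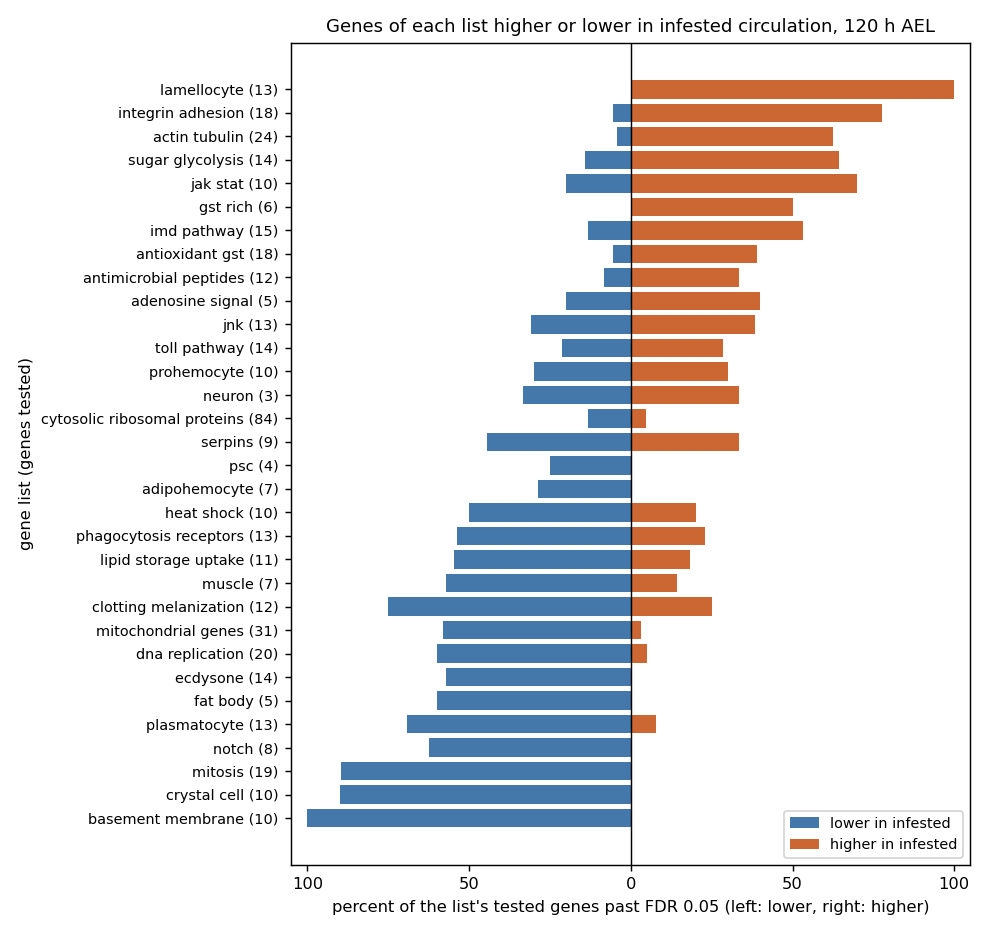
Percent of the tested genes of each list that were higher (to the right) or lower (to the left) in infested libraries at an adjusted p under 0.05, for the 32 lists with at least 3 tested genes. The lamellocyte list reaches 13 of 13 higher, the basement membrane list 10 of 10 lower, and the integrin list 14 of 18 higher, beside 28.2% higher and 24.8% lower over all genes.

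The cells that carried lamellocyte genes and those that did not differed within the same libraries. Levels are given here as CPM without TMM scaling, over the cells in a range, as means over the 3 infested libraries, and as a description with no test. Cells with at least 3 of the 5 genes had median depths of 8580 to 9864 UMIs, against 4891 to 5442 UMIs in infested cells with none, so cells with more RNA were more often in the first range even though each was thinned before counting. alphaTub85E was at 13043 CPM in cells with at least 3 genes, 1289 with 1 or 2 and 259 with none, and at 21.8 in normal cells with none. mys was at 2684 ± 158 CPM (SD, n = 3) with at least 3 genes and 342 ± 36.7 with none, close to the 349.9 ± 86.6 of normal cells with none. Treh was at 1037 CPM with at least 3 genes, 80.8 with none and 69.1 in normal cells with none. Tret1-1 followed at 479, 6.95 and 6.57 CPM, and AdoR at 96.2, 0.777 and 0.301 CPM. These sugar and adenosine receptor genes had their higher levels in the range rich in lamellocyte genes, with the range without them near normal cells. Cells with at least 3 genes had few UMIs of other programs. Hml was at 64.9 CPM there, 432 with 1 or 2 genes and 800.3 with none, against 4099 in normal cells with none. Cg25C went from 3783 in normal cells to 1256 and 77.3 CPM with none and at least 3, and PPO1 from 1746 to 752 and 13.7. CycB was at 1.21 CPM with at least 3 genes, 49.1 with none and 48.5 in normal cells, and stg at 6.66, 261 and 273 CPM. TpnC73F (307 and 3.64 CPM), Syt1 (113 and 1.68) and CG10433 (330.1 and 14.4) were also higher with at least 3 genes than with none, in the mean of the infested libraries.

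**Figure D4:**
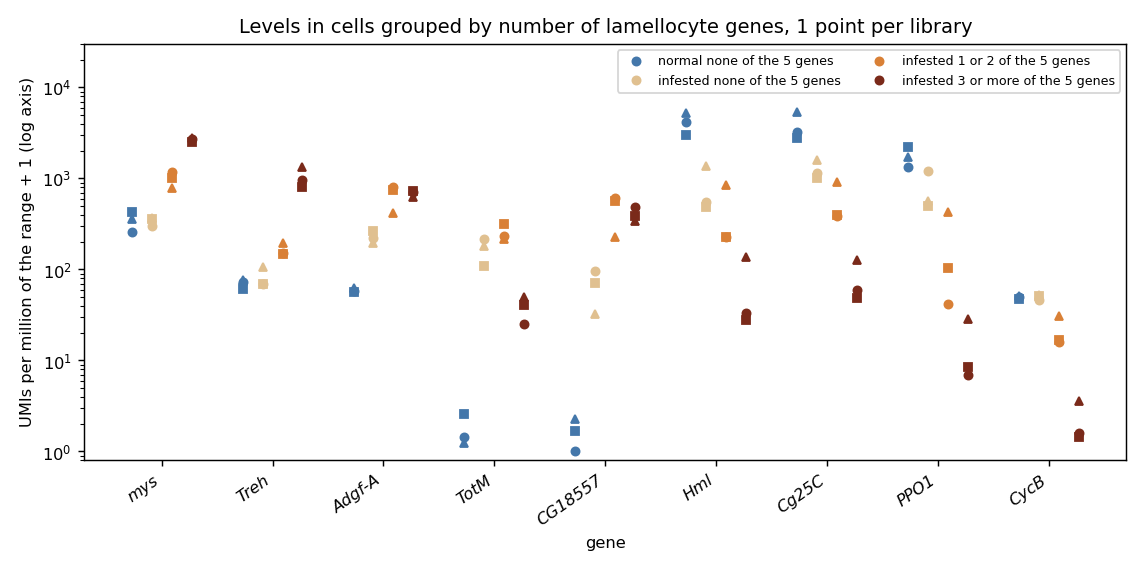
Levels of 9 genes, in UMIs per 1000000 plus 1 on a log axis, in normal cells with none of the 5 lamellocyte genes and in infested cells with none, with 1 or 2 and with 3 or more. Each point is a library, and the ranges were set after thinning. mys and Treh are highest in the last range, TotM and CG18557 are already raised in infested cells with none or with 1 or 2, and Hml, Cg25C, PPO1 and CycB are lowest in the last range.

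Some genes rose in infested cells that had no UMI of the 5 lamellocyte genes after thinning. When UMIs were summed only over cells with none of the 5 genes after thinning and tested between the groups, 554 of 7030 genes were higher (7.88%) and 971 were lower (13.8%). Of the 2003 genes that were higher in whole libraries and could be tested here, 452 were higher again and 35 were lower, and of 1737 lower genes 774 were lower again and 13 higher. Cells in this range can still hold lamellocyte transcripts that were missed, and atilla was 4.49 higher on the log2 scale here (adjusted p = 0.00389), on the UMIs that thinning removed. Of 13 lamellocyte markers 11 were higher here and 1 lower (median 4.49, against 5.21 in whole libraries), so the range is not free of lamellocyte RNA. Free RNA from other cells can add to that, and its part was not tested. TotM was at 216, 108 and 179 CPM in the infested libraries with none of the 5 genes, at 234, 313 and 213 with 1 or 2 and at 24.2, 39.5 and 48.5 with at least 3, against 0.428, 1.61 and 0.252 in normal cells with none. Its log2 fold change in cells without the 5 genes was 7.59 (adjusted p = 0.00122), and in all 3 infested libraries its level was lower with at least 3 genes than with 1 or 2. CG31219 had 5.88 (adjusted p = 0.00122), at 257, 566 and 378 CPM in the 3 ranges. CG12133 had 9.83 (adjusted p = 0.00132), at 79.1, 283 and 213 CPM. The whole normal libraries together held 18 UMIs of CG12133, so this fold rests on few normal counts and its size is uncertain. CG18557 was at 65.6, 469 and 404 CPM. These 3 genes with serine protease names had their highest mean with 1 or 2 genes. The other 3 among the largest rises had it with at least 3 genes, CG10232 at 17.5, 89.8 and 187 CPM, CG9733 at 1.14, 2.16 and 47.9 CPM and CG31220 at 0.409, 2.82 and 55.5 CPM. Adgf-A was 1.77 higher (adjusted p = 0.00132), and GstE6 1.67 (adjusted p = 0.0138). The falls of matrix genes were seen here too, with 9 of 10 basement membrane genes lower (Cg25C -1.78, adjusted p = 0.00654), and those of 6 of 10 crystal cell genes. Hml fell by 2.56 (adjusted p = 0.00838). In these cells 3 of 17 integrin genes were higher and 1 lower, and mys had -0.22 (adjusted p = 0.448). Of 19 mitosis genes 0 were lower and 2 higher, and of 20 DNA replication genes 0 were lower and 3 higher. CycB had -0.17 (adjusted p = 0.375). Of 13 sugar genes 1 was higher and 3 lower, and Treh had 0.034 (adjusted p = 0.917).

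The effect of infestation at 120 h was compared with that at 96 h, 24 h after infestation, in a fit of the 12 circulation libraries of both ages. The 2 comparisons share no library, but normal library 1 of 120 h and normal library 3 of 96 h share 38 cell barcodes. The log2 fold changes given for 96 h are from a fit of that age alone. The effect was higher at 120 h for 654 of 7789 genes (8.4%) and lower for 464 (5.96%). Lamellocyte genes had large log2 fold changes at 96 h too. At that age at least 3 of the 5 genes were seen in 10.5, 2.46 and 4.08% of cells of the infested libraries and in 0, 0 and 0.237% of cells of the normal libraries, so the share was lower than at 120 h in each infested library. Of the 13 marker genes 1 had an effect that differed between the ages by the test, and their median log2 fold change was 5.55 at 96 h. The gene called was mys, with -0.12 at 96 h and a difference of 2.5 (adjusted p = 0.00579). Without both normal libraries 3, 4 more were called, with a lower effect at 120 h. These were atilla (difference -2.14, adjusted p = 0.0306, against -1.66 and 0.249 with all libraries), CG14610 (-6.70, adjusted p = 0.00469), CG1648 (-2.52, adjusted p = 0.0239) and Dbi (-3.15, adjusted p = 0.00844). CG14610 had no UMI in any thinned cell of normal libraries 1 and 2 of 96 h, so the size of its difference is uncertain. A lower effect here is a lower ratio to the normal libraries, not a lower infested level. For atilla the infested libraries of 96 h stood at 608, 362 and 776 CPM, scaled with all 12 libraries. Those of 120 h stood at 5730, 7481 and 6556 CPM, scaled with the libraries of that age. Every normal library of 96 h was below every normal library of 120 h for this gene. Of 18 integrin genes 10 had a higher effect at 120 h, 0 had a lower one and 8 were not called (median difference 1.78), and 7 were higher without both normal libraries 3. Fit1 went from 1.29 at 96 h by a difference of 2.23 (adjusted p = 0.00191), Pax from -0.20 by 2.31 (adjusted p = 0.00321) and Ilk from 0.46 by 1.83 (adjusted p = 0.00628). Treh followed, with 0.70 at 96 h and a difference of 2.37 (adjusted p = 0.00975), and of 14 sugar genes 4 had a higher effect at 120 h. Of 19 genes of mitosis 14 had a lower effect at 120 h and 0 a higher one (median difference -1.16), and 5 were lower without both normal libraries 3. polo had -0.19 at 96 h and a difference of -1.60 (adjusted p = 0.00437), and Incenp, of the chromosomal passenger complex, 0.010 and -1.64 (adjusted p = 0.0033). For the basement membrane list 0 of 10 genes had a higher and 1 a lower effect at 120 h (0 without both normal libraries 3), and its median log2 fold change was -2.65 at 96 h. Stat92E had 0.19 at 96 h and a difference of -1.30 (adjusted p = 0.0142), and Gadd45 1.33 and -2.73 (adjusted p = 0.00841), so that the fall of both was seen at 120 h. Prohemocyte genes of the lymph gland were higher at 96 h in the fitted values. Tep4, a thioester protein, had 2.22 and a difference of -2.74 (adjusted p = 0.000985), and Ance, an angiotensin-converting enzyme homolog, 2.26 and -2.48 (adjusted p = 0.00901). Without both normal libraries 3, 451 of 8975 genes had a higher (5.03%) and 271 a lower effect (3.02%) at 120 h, and the differences called with all libraries and named here kept their calls. Leaving out any of 5 libraries moved the count of higher effects by more than 1.5 times, to 400 without normal library 1, 326 without infested library 2 and 386 without infested library 3 of 120 h, and to 409 without normal library 1 and 434 without infested library 3 of 96 h. The first 4 of these moved the count of lower effects as well, to 248, 160, 230 and 295, and so did leaving out infested library 2 of 96 h, to 265.

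**Figure D5:**
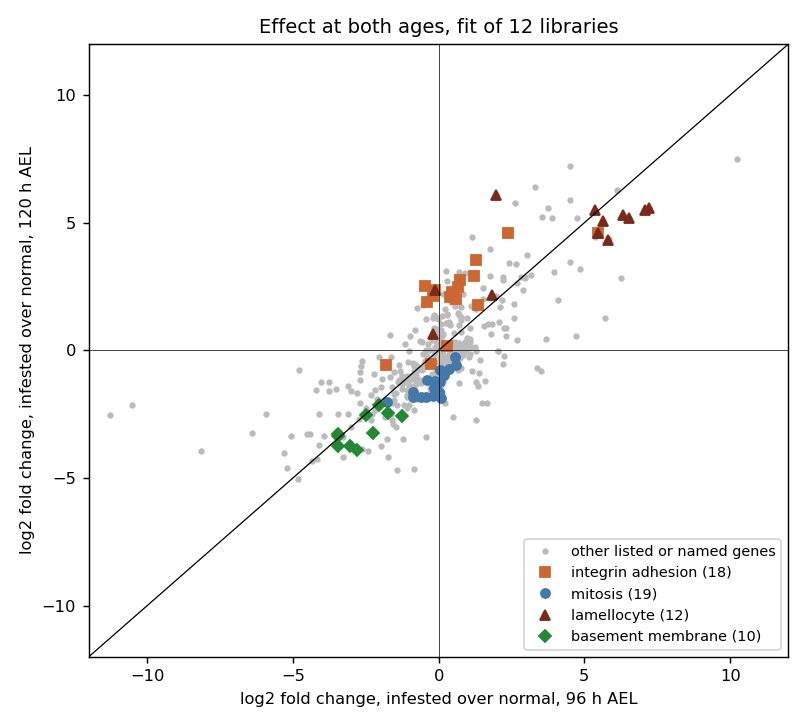
Log2 fold change of infested against normal circulation at 96 h AEL (horizontal) and 120 h AEL (vertical), with 4 lists in color. The genes shown are those of the lists, the named genes and those with serine protease names. Horizontal values are from a fit of the 96 h libraries alone. Vertical values add to them the difference between ages from the fit of 12 libraries. Of the integrin genes 10 of 18 had a called higher effect at 120 h and lie above the diagonal, of the mitosis genes 14 of 19 had a lower one (5 without both normal libraries 3) and lie below it, and basement membrane genes are below 0 at both ages.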

How the data were processed

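Single hemocytes were profiled by Drop-seq, which tags each transcript with a UMI and a cell barcode. Per the labels and the study's methods, the authors processed reads with Drop-seq tools and Picard, aligned them with STAR 2.5.3a to BDGP6, and deposited raw counts, the UMIs of each gene in each barcode, without normalization. A barcode minimum for circulation libraries is not given in the sources used here. The files list genes by symbol, 13820 in the normal and 14597 in the infested libraries of 120 h, and a gene missing from a file was counted as 0. Any filter or ambient RNA that differed between libraries would move the low values.

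Barcodes were filtered as stated in the report, with no doublet caller, and UMIs were summed per library. They were tested in R 4.3.3 with edgeR 4.0.16 (filterByExpr, TMM, robust quasi-likelihood fit, Benjamini-Hochberg adjustment, threshold 0.05), with DESeq2 1.42.0 as an alternative. Every adjusted p in the text is from edgeR. Shares of cells were taken after thinning to 1500 UMIs and tested by the exact permutation test, two-sided, in Python 3.11.15 with scipy 1.17.1. The effects at 96 and 120 h were compared in a fit of 12 libraries. Scripts were tested on simulated data. Named genes were those of the lists, and the 15 largest rises and 15 largest falls with a call, a mean of at least 20 CPM in the higher group, no overlap of groups and the same call without normal library 3. The libraries, the marker lists and the gene groups were chosen with earlier results of these data known, so no list is independent support. Promoter motifs were not analysed here. Alternatives were other scaling, filters, cell limits, a replicate block and leaving out each library.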

Additional observations from a re-analysis of the deposited data

Results flagged for a closer look

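The effect of infestation differed between 96 and 120 h AEL for 25 of the genes named in the report or its lists, by the edgeR test of the difference of the 2 effects, with all 12 circulation libraries and without both normal libraries 3. Values are the effect at 120 h minus that at 96 h on the log2 scale. Genes of adhesion and the cytoskeleton had a higher effect at 120 h, with differences of 2.5 for mys, 2.31 for Vinc, 2.23 for Fit1, 2.31 for Pax, 1.83 for Ilk and 1.37 for Act42A. The same held for the sugar genes Treh (2.37) and Tret1-1 (2.22). Among receptors of plasmatocytes crq differed by 2.52, Sr-CI by 2.06, Sr-CIV by 1.72 and drpr by 1.71. Of these, crq, Sr-CI and drpr had log2 fold changes of -3.75, -2.66 and -3.10 at 96 h, so their values were closer to 0 at 120 h. At 120 h crq was called without normal library 3 (-1.52) and not with it (-1.17), and Sr-CI was called (-0.54) but not without normal library 1 (-0.51), normal library 3 (-0.43), infested library 1 (-0.53) or infested library 2 (-0.49). Gal differed by 4.21, Spn88Ea by 2.15 and Lsp1beta, a larval serum protein of the fat body, by 8.36. Gal fell at both ages, with log2 fold changes of -8.14 at 96 h and -3.87 at 120 h. It was at 0.259, 0.403 and 0.426 CPM in the infested libraries of 96 h, so its difference rests on very low counts there. The fat body list, which holds Lsp1beta, had a median log2 fold change of -10.9 at 96 h. Gadd45 (-2.73), Stat92E (-1.30), CG1673 (-2.44) and the Nimrod gene NimB1 (-1.90) had a lower effect at 120 h, as did the genes of cell division polo (-1.60), Incenp (-1.64) and sti (-1.96), the prohemocyte genes Tep4 (-2.74) and Ance (-2.48), and mt:ND5, a subunit of complex I encoded by mitochondrial DNA (-1.46). Groups of 3 libraries were too small for a test of single outlying libraries.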

How the results depend on the processing

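Of 159 genes named or listed for the text, 136 kept the direction of their difference in all 18 settings tried and 83 kept direction and call. The counts of genes higher and lower (2217 and 1956) were 2104 and 2068 with RLE size factors, 2073 and 2122 with DESeq2, 2533 and 1409 without a filter on low counts, and between 1526 and 2270 and between 1349 and 2076 with single libraries left out. Thinned cells gave 1297 higher genes. Cells without UMIs of the 5 lamellocyte genes after thinning gave 554 higher and 971 lower genes, and 44 and 81 list genes against 110 and 147 in all cells. The differences between ages, 654 higher and 464 lower, were 408 and 255 without a filter, 308 and 162 with thinned cells, and ranged from 326 to 659 and from 160 to 691 with single libraries left out. For the lower effects, DESeq2 called 765 and the fit without both normal libraries 3 called 271. The causes were not tested. Without thinning the differences in shares of cells were 78.0 (atilla), -52.5 (Hml) and -15.1 (PPO1) percentage points, against 71.4, -68.4 and -8.68 with it. The mean share of infested cells with at least 3 lamellocyte genes was 52.6%, and 68.3% without thinning, 68.0% for at least 2 genes and 40.6% for at least 4. In cells without the 5 genes the direction was the opposite for msn (-0.84), mys (-0.22), Moe (-0.36), mew (-0.32), rhea (-0.11), Vinc (-0.82), Tret1-1 (-0.11), AdenoK (0.093), NimC1 (0.086), CG10424 (0.21), yellow-f (-0.23), Drs (-0.22), Myd88 (-0.49), Tak1 (-0.12), upd3 (-0.093), Jra (-0.15), kay (-0.30), puc (-0.54), PCNA (0.33), bmm (-0.36), Ance (0.70), TpnC73F (-0.80). With thinned cells it was for Moe (-0.097), CG10424 (0.030), and without a filter for CG10424 (0.036), PCNA (0.011), Ance (0.0019). Leaving out single libraries turned CG10424 (range -0.26 to 0.071, without normal library 3), Drs (-0.11 to 1.49, without normal library 3), Hsp83 (-0.12 to 0.28, without normal library 2 or infested library 2) and Ance (-0.41 to 0.070, without normal library 1).

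Same-numbered libraries of the groups did not deviate together (correlations of -0.043, 0.015 and -0.10 over 2000 genes), so the numbers do not pair them. With the replicate number as a block 1835 genes were higher and 1560 lower, 101 and 140 of them in the lists, and 500 and 300 differences between ages were called. Normal library 3 was not best correlated with its own number. Leaving out barcodes shared between libraries was chosen after seeing the data and changed no call of a named gene. The normal libraries, with fewer UMIs, limit the lowest levels. Promoter motifs were not run, since no promoter sequences were used here.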

Other observations

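Genes that RefSeq lists with serine protease names were frequent among the largest rises, which was seen after the values were known, so the counts are a description. Clip-domain and other serine proteases of hemolymph act in cascades that lead to melanization and to Toll signalling. The genes counted here were taken by synonym alone, and whether each is a protease of hemolymph was not checked. Names with SPH mark protease homologs. RefSeq gives 270 genes a synonym of this kind (SP, SPH, cSP or cSPH with a number), of which 244 are in the files and 75 were tested. Of these 31 were higher and 18 lower, with a median log2 fold change of 0.84, and 6 were among the 15 largest rises, beside 28.2% higher and 24.8% lower over all genes. CG3117 was at 0.196, 0.202 and 0.226 CPM in the normal and 12.3, 12.7 and 6.36 CPM in the infested libraries (log2 fold change 5.65, SE 0.49, adjusted p = 0.00022), and CG31267 at 0, 0 and 0.226 CPM in the normal and 3.34, 3.84 and 3.7 CPM in the infested libraries (log2 fold change 5.71, SE 0.78, adjusted p = 0.00118). Both were above all normal libraries in every infested library. In the other direction CG10469 was at 50.7, 93 and 36.6 CPM in the normal and 6.4, 5.35 and 6.86 CPM in the infested libraries (log2 fold change -3.27, SE 0.36, adjusted p = 0.000729). grass, a clip-domain protease upstream of Toll, was at 6.07, 8.68 and 6.56 CPM in the normal and 2.07, 1.38 and 1.77 CPM in the infested libraries (log2 fold change -2.03, SE 0.30, adjusted p = 0.00174). Neighbouring genes could be near-identical copies, and how the reads were assigned among them was not tested.

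Neighbours on the chromosome also moved apart. CG6034, the largest of the 15 falls named by the rule, and Adgf-A, which rose, lie 4870 bases apart on chromosome 3L in RefSeq, with log2 fold changes of -6.85 and 3.50. The normal level of CG6034 came from few cells, with a UMI in 0.149, 1.19 and 0.187% of cells of the normal libraries after thinning.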
